A study of Mus musculus with 6 samples.

Results

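The nuclei described here are ON cone bipolar nuclei of the mouse retina that were selected on 5 genes of type 5-like cells. A barcode was taken when it held at least 500 UMIs (unique molecular identifiers, each standing for 1 counted RNA molecule) with at most 10% of them mitochondrial. It also needed at least 3 UMIs of Grm6 and Trpm1 together, at least 10 UMIs of Sox6, Hs3st4, Cntn5, Cdh9 and Il1rapl2 together, more of those than of the rod bipolar genes Prkca, Lrrtm4, Car8, Vstm2b and Ano3 together, and at most 1 UMI of Gad1 and Gad2. The selection found 1302 nuclei among 27225 barcodes that passed the UMI and mitochondrial filters, of which the control gave 485, the 2-week library 351 and the 4-week library 466. The same filters gave 2184 rod bipolar nuclei and 956 other ON bipolar nuclei for comparison. Because the members were chosen by these measured UMIs, the levels of the genes of the rule are a description and not a finding.

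The study overexpressed WIF1, a secreted protein that binds Wnt ligands, in the retina of C57BL/6J mice and profiled nuclei by 10x multiome sequencing, which reads RNA and open chromatin (ATAC) in the same nucleus. The control group was naïve wild-type retina, and the other groups were taken at 2 weeks and 4 weeks AVI, an abbreviation that the labels do not expand, after an AAV2/2 vector. The design names CMV-driven Wif1-HA vectors with and without IRES-GFP and does not say which was used here, and the labels give no age. A GFP vector is named as a control of the study, but the control library here is labelled naïve, so the vector and WIF1 cannot be told apart. Each group had 2 eyes and 1 library, and the labels do not say whether the eyes were pooled.

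Bipolar cells carry the signal of photoreceptors to the inner retina. ON bipolar cells sense glutamate with the receptor mGluR6 (Grm6), which keeps the channel TRPM1 closed in the dark, so that light depolarises the cell. ON cone bipolar cells fall into several types that differ in gene expression, in the depth at which their axons end and in the ribbon synapses they make onto amacrine and ganglion cells.

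RNA of the selected nuclei came to 2226430 UMIs for the control, 1016377 for the 2-week and 1834996 for the 4-week library. Median depth per nucleus was 4212, 2576 and 3567 UMIs, so the 2-week nuclei were the shallowest. The median mitochondrial share was 3.69%, 1.74% and 1.06%, and rod-list genes made up 1.19%, 0.843% and 0.933% of the UMIs. Doublets were scored but not removed in the main values, and 15.7%, 16.5% and 13.3% of the selected nuclei were called doublets. The control shared 173 barcodes with the 2-week library and 142 with the 4-week library, and the treated libraries shared 207, but no barcode of a selected nucleus occurred in more than 1 library. With 1 library per group there is no replicate check and no test, and every interval below is a 95% interval that covers counting error only.

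Near the threshold, 39 control, 48 2-week and 37 4-week members held 10 to 12 UMIs of the 5 genes, and 38, 56 and 34 nuclei that met all other terms fell just outside with 7 to 9. Their median depths were 3679, 2588.5 and 3261 UMIs just inside and 3432, 2396 and 3192 just outside. The 5 genes were unevenly held. Cntn5, an adhesion molecule of the contactin family, was the leading one of the 5 in 67.8%, 65.8% and 67.6% of members, followed by Il1rapl2, a synaptic adhesion protein, in 24.5%, 27.1% and 24.7%. Sox6, a transcription factor, had a UMI in 32.6%, 45.3% and 41.0% of members. In 32.0%, 16.8% and 22.5% of members a single one of the 5 genes was detected.

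The selection therefore covered more than 1 kind of nucleus. A split chosen after the values were seen, at 5 UMIs of Cntn5 and 5 UMIs of Hs3st4, Cdh9 and Il1rapl2 together, gave 507 nuclei with both, 404 nuclei with Hs3st4, Cdh9 or Il1rapl2 but little Cntn5, and 390 nuclei with Cntn5 alone. 1 nucleus met neither term. By library, in the order control, 2 weeks and 4 weeks, the nuclei with both numbered 161, 152 and 194, those with little Cntn5 numbered 151, 111 and 142, and those with Cntn5 alone numbered 173, 87 and 130. Otx2 and Isl1, transcription factors of bipolar cells that the rule did not use, were present in all 3 kinds in every library. Isl1 stood at 589, 622 and 583 CPM (UMIs scaled to a group total of 1e6) in nuclei with both, at 389, 377 and 411 with little Cntn5, and at 606, 660 and 702 with Cntn5 alone.

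Of the 6 listed type 5 genes outside the rule, Htr3a, Cabp5 and Kcng4 stood highest in the nuclei with both gene sets. The type 5 label was therefore met only in part. Htr3a, a serotonin receptor subunit, stood at 97.7, 79.9 and 60.5 CPM in nuclei with both. In the other kinds it was at 0 to 17.0 CPM. Cabp5, a calcium-binding protein of bipolar cells, stood at 696, 594 and 597 CPM in nuclei with both, 2.4, 18.5 and 6.4 with little Cntn5, and 133, 162 and 205 with Cntn5 alone. It was not particular to the selected nuclei, since rod bipolar nuclei held it at 258, 271 and 257 CPM. Kcng4, a modifier subunit of voltage-gated potassium channels on the same list, stood at 189, 202 and 203 CPM with both, 77.6, 76.5 and 74.8 with little Cntn5, and 19.9, 34.0 and 36.7 with Cntn5 alone.

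Of the 4 genes listed for ON types 6 to 9, 3 stood highest in the other kinds. Igfn1, an immunoglobulin-domain protein, stood at 382, 541 and 428 CPM in nuclei with little Cntn5 and at most at 14.98 CPM elsewhere. Cck, the neuropeptide cholecystokinin, stood at 1100, 1153 and 1034 CPM in nuclei with Cntn5 alone and at most at 36.2 CPM elsewhere. Serpini1, a protease inhibitor of neurons, stood at 147, 113 and 161 CPM with little Cntn5, at 62.3, 42.6 and 62.6 with Cntn5 alone, and at 31.5, 12.5 and 51.1 with both. The remaining gene, Cpne9, had 5, 2 and 7 UMIs in all selected nuclei. Vsx1, a transcription factor of cone bipolar subtypes, was at 497, 319 and 360 CPM with little Cntn5, 219, 162 and 143 with Cntn5 alone, and 34.7, 10.0 and 9.4 with both. Hence the 3 kinds are named here by their genes, and no other type name is given to them. Slitrk5 and Chrm2 from the type 5 list were at 79.5, 59.6 and 71.2 CPM and at 50.4, 34.0 and 66.9 CPM in the nuclei with Cntn5 alone, so that the listed type 5 genes were themselves spread over the kinds. Lrrtm1, the remaining gene of the type 5 list, had 26, 18 and 32 UMIs in all selected nuclei.

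**Figure D1:**
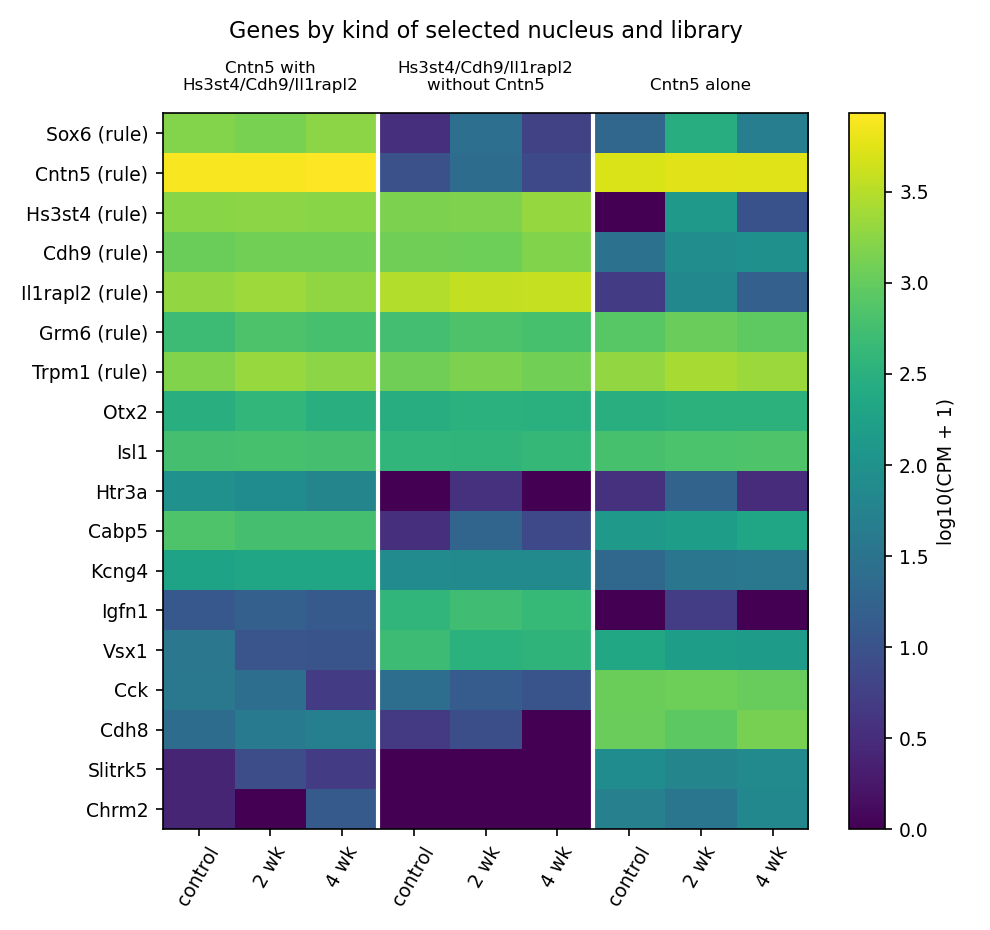
Level of each gene, as log10(CPM + 1), in the 3 kinds of selected nuclei (nuclei with both gene sets, with little Cntn5, and with Cntn5 alone) in the control, 2-week and 4-week libraries. Igfn1 reaches 382 to 541 CPM in nuclei with little Cntn5 and Cck 1034 to 1153 CPM in nuclei with Cntn5 alone, while Htr3a is above 17.0 CPM in nuclei with both gene sets only.

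Most genes that set a kind apart in the control did so in the treated libraries too. The kinds were cut on RNA in each library, so the counts below are a description. The share of all genes past the same limits was not computed beside them. In the control, 61 genes were at least 4-fold above the next kind in nuclei with both gene sets, and 53 of them were still at least 2-fold above it at 2 weeks and 55 at 4 weeks. For nuclei with little Cntn5 the counts were 51, 48 and 47 genes, among them Tacr1, Slit1 and Sox5, and for nuclei with Cntn5 alone they were 112, 94 and 106 genes, among them Csmd3, Kcnmb2 and Cdh8. Cdh8, a cadherin, stood at 1081, 877 and 1347 CPM in nuclei with Cntn5 alone, at 23.6, 39.95 and 48.4 with both, and at 3.6, 7.9 and 0 with little Cntn5. Nfia, a transcription factor, stood at 2091, 2070 and 2200 CPM with both, at 19.1, 60.7 and 19.1 with little Cntn5, and at 176, 536 and 527 with Cntn5 alone. The boundary was less sharp at 2 weeks, where nuclei with Cntn5 alone held Sox6 at 285 CPM against 18.6 in the control and 47.5 at 4 weeks.

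ATAC counts also differed between the kinds at the promoters given here, which were chosen after the values were seen. The counts are not scaled to the ATAC total of each kind. Promoters that did not follow the kinds were not counted. The Vsx1 promoter had 0, 5 and 2 ATAC counts in nuclei with both gene sets, 58, 60 and 62 with little Cntn5, and 25, 16 and 33 with Cntn5 alone. At the Cabp5 promoter the counts were 22, 29 and 22 with both, 0, 4 and 2 with little Cntn5, and 12, 7 and 12 with Cntn5 alone. The Cntn5 promoter itself had 22, 32 and 18 counts with both, 0, 4 and 0 with little Cntn5, and 19, 34 and 14 with Cntn5 alone. For Vsx1 and Cabp5 the order of the kinds in these counts was that of the RNA in every library, for Cabp5 at 2 weeks by 7 against 4 counts.

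A wider set of peaks separated the selected nuclei from rod bipolar nuclei. Of 44421 peaks that the 3 libraries shared, 18094 had at least 30 counts in the selected control nuclei, and 260 of those were at least 4-fold above rod bipolar nuclei in the control. At 2 weeks 235 of the 260 (90.4%) and at 4 weeks 253 (97.3%) were still at least 2-fold above rod bipolar nuclei, against 6.38% and 6.86% of all tested peaks. 183 of the 260 lay inside a RefSeq gene and 3 of them inside the 5 selection genes. A peak in Neb, the gene of the muscle protein nebulin, had 34, 41 and 63 counts in the selected nuclei and 4, 1 and 12 in rod bipolar nuclei. A peak in Pla2g4a, a phospholipase gene, had 37, 34 and 32 counts in the selected nuclei and 4, 12 and 19 in rod bipolar nuclei. The Prkca promoter, of the kinase that marks rod bipolar cells, stood at 60, 66 and 90 counts per 1e6 promoter counts here and at 156, 117 and 161 in rod bipolar nuclei.

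Selected nuclei made up 6.31% (5.78 to 6.88) of the filtered control barcodes, 3.54% (3.19 to 3.93) of those at 2 weeks and 4.84% (4.42 to 5.28) of those at 4 weeks. Over the control, the 2-week ratio was 0.561 (0.488 to 0.645) and the 4-week ratio 0.766 (0.673 to 0.872). These ratios moved with the UMI floor, which sets both the selected nuclei and the barcodes they are counted among. Among barcodes of at least 1000 UMIs the ratios were 1.10 and 0.923, and among those of at least 2000 UMIs they were 0.909 and 1.02. With the latter thinned to 2000 UMIs each, the ratios were 1.22 and 1.37. Of all ON bipolar nuclei, the selected ones were 31.9%, 25.4% and 30.2%. No direction of their share is therefore read from these libraries.

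Within the selected nuclei, those with both gene sets were 33.2% (29.0 to 37.6), 43.3% (38.1 to 48.7) and 41.6% (37.1 to 46.3). Nuclei with little Cntn5 were 31.1%, 31.6% and 30.5%, and nuclei with Cntn5 alone were 35.7% (31.4 to 40.1), 24.8% (20.4 to 29.6) and 27.9% (23.9 to 32.2). In nuclei thinned to 2000 UMIs and selected again, which left 239, 187 and 304 members, nuclei with both were 45.2%, 47.6% and 46.4% and nuclei with Cntn5 alone 27.6%, 18.7% and 24.3%. The share with both thus differed by at most a few percentage points once depth was equal, while the share with Cntn5 alone stayed lowest at 2 weeks.

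**Figure D2:**
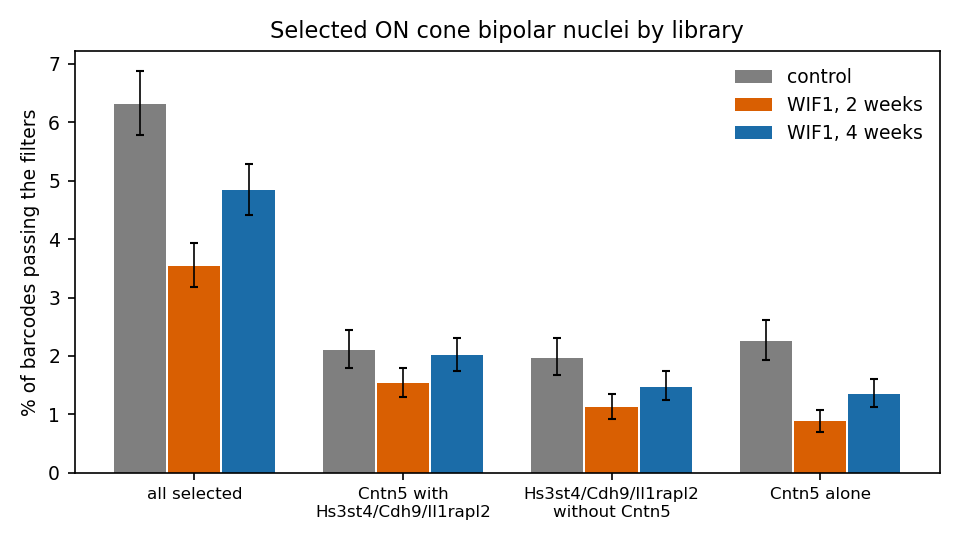
Percentage of filtered barcodes that were selected nuclei, in all and by kind, in the 3 libraries, with 95% Clopper-Pearson intervals that cover counting error only. All selected nuclei are at 6.31%, 3.54% and 4.84% in that order of libraries, and with barcodes thinned to 2000 UMIs both treated libraries lie above the control, at ratios of 1.22 and 1.37.

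At 2 weeks genes of MHC class I, the complex that presents peptides on the cell surface to cytotoxic T cells, stood above the control. Of the 29 antigen presentation genes listed, 8 had at least 30 UMIs in the higher of the control and 2-week libraries, and 4 of these (H2-K1, H2-D1, H2-Q7 and B2m) were at least 2-fold higher at 2 weeks, against 1.84% of all 8009 genes tested. H2-Q7 and B2m reached 30 UMIs only through the 2-week library, where they were high, so their calls are a description. H2-K1 and H2-D1 held 41 and 57 UMIs in the control. None of the 8 was at least 2-fold lower, against 3.11% of genes. Over the 21 listed genes with at least 10 UMIs in the pair of libraries, the median log2 ratio was 1.72, against 0.02 over all genes. At 4 weeks 0 of 7 tested genes were called in either direction, against 0.501% of 8984 genes higher and 1.15% lower, and the median was 0.04.

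The genome sequences before the main class I genes are shown because these genes differed together. The RefSeq promoter windows of GRCm38.p6 run from 250 bases before to 50 bases after a start, and capitals mark the letters TTTCNNTTC, the core of an interferon-responsive element, searched on both strands with no other motif. The H2-K1 window is chr17:34000298-34000597 on the minus strand and the H2-D1 window is chr17:35262844-35263143 on the plus strand.
H2-K1: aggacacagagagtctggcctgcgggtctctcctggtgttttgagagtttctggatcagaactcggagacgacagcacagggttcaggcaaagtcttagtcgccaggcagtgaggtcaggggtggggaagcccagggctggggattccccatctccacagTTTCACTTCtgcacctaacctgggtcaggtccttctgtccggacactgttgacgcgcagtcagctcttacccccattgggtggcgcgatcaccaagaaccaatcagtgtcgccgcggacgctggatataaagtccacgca
H2-D1: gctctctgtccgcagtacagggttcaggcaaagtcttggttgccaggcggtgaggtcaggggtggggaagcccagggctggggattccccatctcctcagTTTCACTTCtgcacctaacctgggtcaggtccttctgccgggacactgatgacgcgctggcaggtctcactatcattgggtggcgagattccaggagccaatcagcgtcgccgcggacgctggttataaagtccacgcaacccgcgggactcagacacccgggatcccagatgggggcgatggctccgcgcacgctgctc
The match began 90 bases before the start of H2-K1 and 150 bases before that of H2-D1. The letters occurred in 2469 of 32851 promoter windows (7.52%) and in 7 of the 22 listed antigen presentation genes that had a window, which were H2-K1, H2-D1, H2-Q4, H2-Q6, H2-Q7, H2-M3 and Psme1. A listed gene counted if any of its windows matched, and some genes had several windows, so these shares are not on the same scale. All of these genes but Psme1 are class I genes, which can share sequence, so no enrichment is read from the counts. The B2m window did not hold these letters. A match describes the sequence and shows no binding.

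H2-K1, a class I heavy chain, had 41 UMIs in control nuclei, 272 in 2-week nuclei and 33 in 4-week nuclei. These are 18.4, 268 and 18.0 CPM, so the 2-week library stood apart and the 4-week library lay beside the control. Its 2-week ratio to the control was 14.5 (10.4 to 20.7) and its 4-week ratio 0.98 (0.60 to 1.58). H2-K1 had a UMI in 7.42%, 44.4% and 5.36% of the selected nuclei. With every nucleus thinned to 2000 UMIs, which left out 6, 72 and 12 shallower nuclei, the shares were 5.01% (3.24 to 7.36), 35.5% (29.9 to 41.4) and 2.86%.

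The H2-K1 ratio was of like size in the 3 kinds of nuclei. It was 14.7 (8.60 to 27.0) in nuclei with both gene sets, 13.9 in those with little Cntn5 and 13.5 in those with Cntn5 alone. In rod bipolar nuclei it was 29.6 and in other ON bipolar nuclei 7.40, so the difference was not particular to the selected nuclei. The median of the antigen presentation list was 1.88 at 2 weeks in rod bipolar nuclei and 1.59 in other ON bipolar nuclei.

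H2-D1, a second class I heavy chain, had 57, 166 and 48 UMIs, which are 25.6, 163 and 26.2 CPM. Its 2-week ratio was 6.38 (4.70 to 8.78) and its 4-week ratio 1.02. H2-Q7, a nonclassical class I gene, had 2, 51 and 2 UMIs, and its ratio at 2 weeks was 55.9 (14.7 to 474), resting on 2 UMIs in the control, and 93.0 without called doublets, resting on 1. Class I genes are near copies of each other, so reads may have been split or lost among them. H2-Q4 had 3, 28 and 2 UMIs and H2-Q6 had 0, 29 and 0, both just under the 30 UMIs needed for a call.

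B2m, the light chain that all class I molecules share, had 25, 119 and 8 UMIs, which are 11.2, 117 and 4.36 CPM. Its 2-week ratio was 10.4 (6.73 to 16.8) and its 4-week ratio 0.39 (0.15 to 0.89). 1 nucleus held 25.2% of the B2m UMIs at 2 weeks. Without called doublets B2m had 6, 101 and 5 UMIs, and the ratios were 38.2 at 2 weeks and 1.001 at 4 weeks, so that the lower value at 4 weeks was not seen without them.

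Other parts of the class I route were less marked. Tap2, a subunit of the peptide transporter, had 4, 16 and 14 UMIs. Psmb10, an immunoproteasome subunit, had 9, 12 and 10, and Psme1, a proteasome activator, had 58, 33 and 45 UMIs, a ratio of 1.25 at 2 weeks. Calr, a chaperone of class I folding, was at 324, 226 and 407 CPM. Nlrc5, the transcriptional activator of class I genes, had 2, 10 and 0 UMIs, and Cd74, the invariant chain of class II, had 1, 21 and 0.

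Immunoglobulin RNA was also found in the 2-week nuclei. Igkc, the kappa light chain of plasma cells, had 0 UMIs in control nuclei, 75 in 44 of the 2-week nuclei and 0 in 4-week nuclei, which is at least 54.8-fold higher against a floor of 3 counts over the control nuclei, or at least 21.2-fold in nuclei thinned to 2000 UMIs. It had 0, 940 and 0 UMIs in rod bipolar nuclei and 0, 573 and 0 in other ON bipolar nuclei, while H2-K1 had 22, 387 and 14 and 42, 207 and 44 there. Over the 6 lymphocyte and plasma cell markers the sum was 8.08, 88.5 and 7.63 CPM, with 5, 2 and 5 of the 6 at 0, and the T cell marker Cd3e at 0 in every library. Igkc is 1 of the 6 and gave 73.8 CPM of the 2-week sum, so the sum largely restates Igkc. Jchain, of the same list, stood at 8.08, 5.90 and 7.63 CPM. The 7 microglia markers summed to 34.1, 37.4 and 57.8 CPM, with 1, 1 and 0 of them at 0. The same markers summed to 29.9, 88.9 and 24.3 CPM in rod bipolar nuclei and to 31.2, 72.2 and 41.6 CPM in other ON bipolar nuclei. The part of RNA from other cells in the class I values was not tested.

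**Figure D3:**
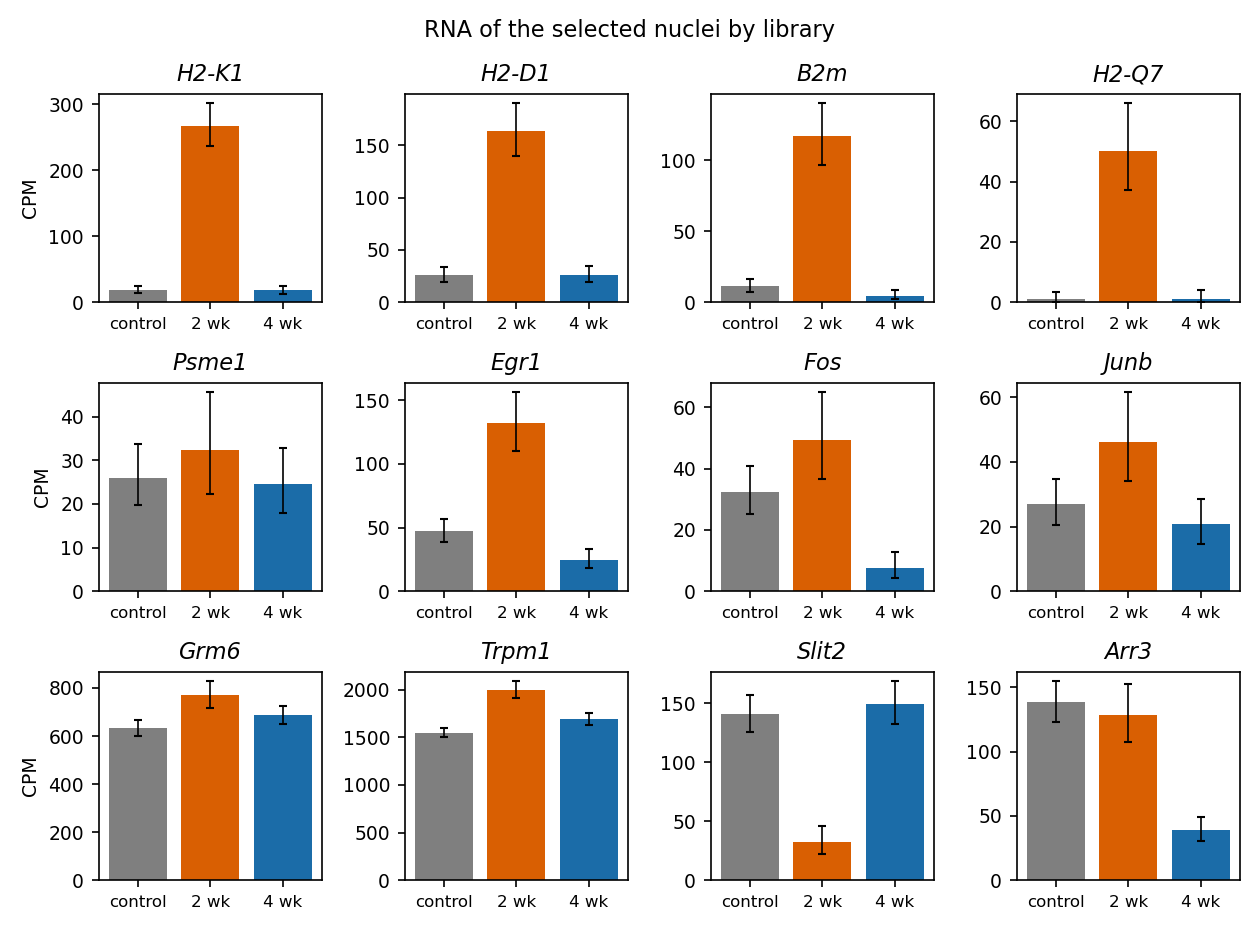
CPM of single genes in the selected nuclei of the control, 2-week and 4-week libraries, with 95% Poisson intervals that cover counting error only. H2-K1 stands at 18.4, 268 and 18.0 CPM and H2-D1 at 25.6, 163 and 26.2 CPM.

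Open chromatin at class I promoters was also higher at 2 weeks, by less than the RNA. The promoter peak of H2-D1 had 80, 146 and 99 ATAC counts, which are 61.7, 93.9 and 54.9 per 1e6 promoter counts, a ratio of 1.52 (1.15 to 2.03) at 2 weeks. For B2m the values were 40, 92 and 73 counts and a ratio of 1.92 (1.31 to 2.86), and for H2-Q7 they were 37, 78 and 71 counts and a ratio of 1.76 (1.17 to 2.68). The H2-K1 promoter had 88, 140 and 95 counts and a ratio of 1.33 (1.01 to 1.75), but its peaks were called separately and covered 1573, 893 and 1533 bp. The H2-D1 peak covered 862, 884 and 872 bp, so its ratio did not rest on peak length.

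Of 20 listed antigen presentation promoters with at least 30 counts, 3 were at least 2-fold higher at 2 weeks (H2-Q6, H2-M3 and H2-Eb1), against 1.94% of 9860 promoters, and 0 were 2-fold lower, against 1.37%. H2-Q6 had 49, 132 and 87 counts and H2-M3 had 19, 49 and 21. In the comparison of 2 weeks with the control, H2-M3 and H2-Eb1 reached 30 counts only through the 2-week library, so their calls are a description. H2-Eb1, a class II gene, had 16, 47 and 45 counts and was the one of 19 that was called higher at 4 weeks, against 0.657% of 9735 promoters, with none lower, against 1.34%. From 2 to 4 weeks 1 of 20, H2-M3, was called lower. The list's median log2 ratio over 21 promoters was 0.37 at 2 weeks and -0.13 at 4 weeks, beside -0.03 and -0.04 over all promoters.

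**Figure D4:**
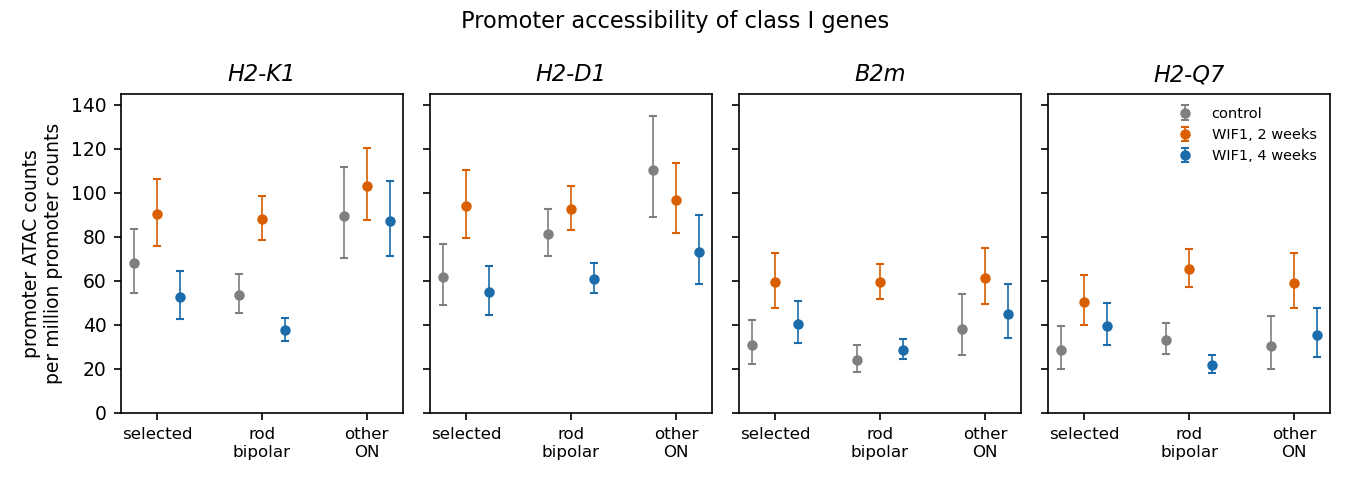
ATAC counts at promoter peaks of class I genes per 1e6 promoter counts in the selected nuclei, rod bipolar nuclei and other ON bipolar nuclei of each library, with 95% Poisson intervals that cover counting error only. In the selected nuclei B2m stands at 30.8, 59.2 and 40.5 and H2-D1 at 61.7, 93.9 and 54.9.

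Most interferon-induced genes were sparse in RNA. Of 44 listed genes, 12 had at least 10 UMIs in the control and 2-week libraries. At 2 weeks 11 of these were higher, beside 51.6% of all genes, with a median log2 ratio of 0.72. However, 0 of the 3 tested genes reached 2-fold (1 of 2 without called doublets). Irf1, a transcription factor of interferon signalling, had 3, 6 and 2 UMIs. The 16 receptors and kinases of the interferon route had medians of 0.12 and 0.16, with 0 of 7 and 0 of 9 tested genes called. At the promoters, 2 of 14 interferon-induced genes with at least 30 counts were at least 2-fold higher at 2 weeks, against 1.94% of all promoters, and 0 were lower. They were Ifit3b, with 13, 34 and 16 ATAC counts, and Bst2, which encodes the antiviral membrane protein tetherin, with 10, 33 and 9. Both reached 30 counts only through the 2-week library, where they were high, so this count and the one from 2 to 4 weeks are a description. At 4 weeks 0 of 10 were called. From 2 to 4 weeks 5 of 14 were at least 2-fold lower (Irf8, Ifit3b, Bst2, Irgm1 and Dtx3l), against 1.79% of 9929 promoters, and 0 were higher, against 0.544%.

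Immediate early genes, which neurons switch on within minutes of activity or stress, differed between all 3 libraries. At 2 weeks 2 of 10 tested genes were at least 2-fold higher (Egr1 and Nr4a2), against 1.84% of all genes, and at 4 weeks 2 of 11 were at least 2-fold lower (Fos and Ier2), against 1.15%. Nr4a2, a nuclear receptor, lay near the limits at 2.05, and it was at 1.83 in thinned nuclei. Without called doublets it had 26, 23 and 32 UMIs by library, too few for a call at 2 weeks. Egr1 had 105, 134 and 45 UMIs, which are 47.2, 132 and 24.5 CPM, with ratios of 2.80 (2.15 to 3.64) at 2 weeks and 0.52 at 4 weeks. Fos had 72, 50 and 14 UMIs, which are 32.3, 49.2 and 7.63 CPM, with ratios of 1.52 at 2 weeks and 0.24 (0.12 to 0.42) at 4 weeks. From 2 to 4 weeks 6 of 10 tested genes were at least 2-fold lower, against 1.73% of 7706 genes, while 2.34% of genes were higher. The Egr1 ratio from 2 to 4 weeks was 0.186 here, 0.084 in rod bipolar nuclei and 0.016 in other ON bipolar nuclei. The Egr1 difference was thus not particular to the selected nuclei. The list medians were 0.61, -0.34 and -0.85. Such genes respond to the handling of tissue as well, and its part was not tested.

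The Egr1 ratio at 2 weeks differed over the kinds of nuclei, which divide 105 control and 134 2-week UMIs of this gene among them. It was 1.68 in nuclei with both gene sets, 3.57 in those with little Cntn5 and 5.62 in those with Cntn5 alone. In the control Egr1 stood at 106, 31.0 and 15.9 CPM in those kinds, and at 4 weeks at 51.1, 6.4 and 6.5. Nuclei with Cntn5 alone held 754294 UMIs of all genes in the control and 234952 at 2 weeks, so their ratio rests on few Egr1 UMIs. The boundary of the kinds was also less sharp at 2 weeks, as given above for Sox6. Its part in these ratios was not tested, and no difference between kinds is read from them.

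In the mGluR6 cascade of ON bipolar cells, 14 listed genes were not used in the selection. Of these, 11 were tested and 0 were called at 2 or 4 weeks, beside 1.84% of all genes higher and 3.11% lower at 2 weeks and 0.501% and 1.15% at 4 weeks, and the medians were 0.14 and -0.03. With so few genes such a count is near that of all genes, and the same holds for the lists with 0 or 1 calls below. Grm6 stood at 634, 771 and 688 CPM and Trpm1 at 1550, 1997 and 1693, both being part of the selection. Gng13, the gamma subunit of the G protein at mGluR6, stood at 908, 1373 and 786 CPM, a ratio of 1.51 at 2 weeks, and its beta subunit Gnb3 at 1152, 1649 and 1099 CPM, a ratio of 1.43. Nyx, the nyctalopin that holds the complex at the dendritic tip, had 117, 68 and 139 UMIs and ratios of 1.27 and 1.44.

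Of the ribbon synapse and release machinery 0 of 28 tested genes were called at either time, near the shares of all genes, with medians of -0.08 and 0.07. Rims2, an active zone scaffold, stood at 1948, 1455 and 2302 CPM. Cplx3, the complexin of ribbon synapses, stood at 400, 277 and 241 CPM, ratios of 0.69 and 0.60.

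Among the 19 receptor subunits for GABA and glycine, the inhibitory input from amacrine cells, 13 of 15 measured genes were lower at 2 weeks. Of all genes, 51.6% were higher. The list had a median of -0.44, and 1 of 12 tested genes was called lower, against 3.11% of all genes. It was Gabrb1, a GABA-A beta subunit, at 71.9, 35.4 and 50.7 CPM, a ratio of 0.49 at 2 weeks. Standardised to the control mix of the 3 kinds of nuclei its ratio was 0.70. Gabrr2, a rho subunit of bipolar GABA receptors, stood at 1226, 1561 and 1307 CPM, and Gphn, the scaffold gephyrin, at 1189, 857 and 1344. At 4 weeks the median was -0.07 with 0 of 12 called.

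Of AMPA, kainate and NMDA subunits, 0 of 10 tested genes were called at 2 weeks and 1 of 10, Grik2, at 4 weeks. Grik2, a kainate receptor subunit, had 40, 14 and 7 UMIs, but those of the control lay in 13 nuclei. Without called doublets it had 9, 9 and 1 UMIs, too few for a call. Of voltage-gated channels, 0 of 19 were called at 2 weeks and 1 of 22, Kcnh7, at 4 weeks, with 82, 20 and 29 UMIs, of which 1 nucleus held 36.6% in the control. Kcnh7 was 2.35-fold of the control at 4 weeks in nuclei with both gene sets alone. The medians of the lists were 0.13 and 0.24 at 2 weeks and -0.24 and 0.05 at 4 weeks.

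**Figure D5:**
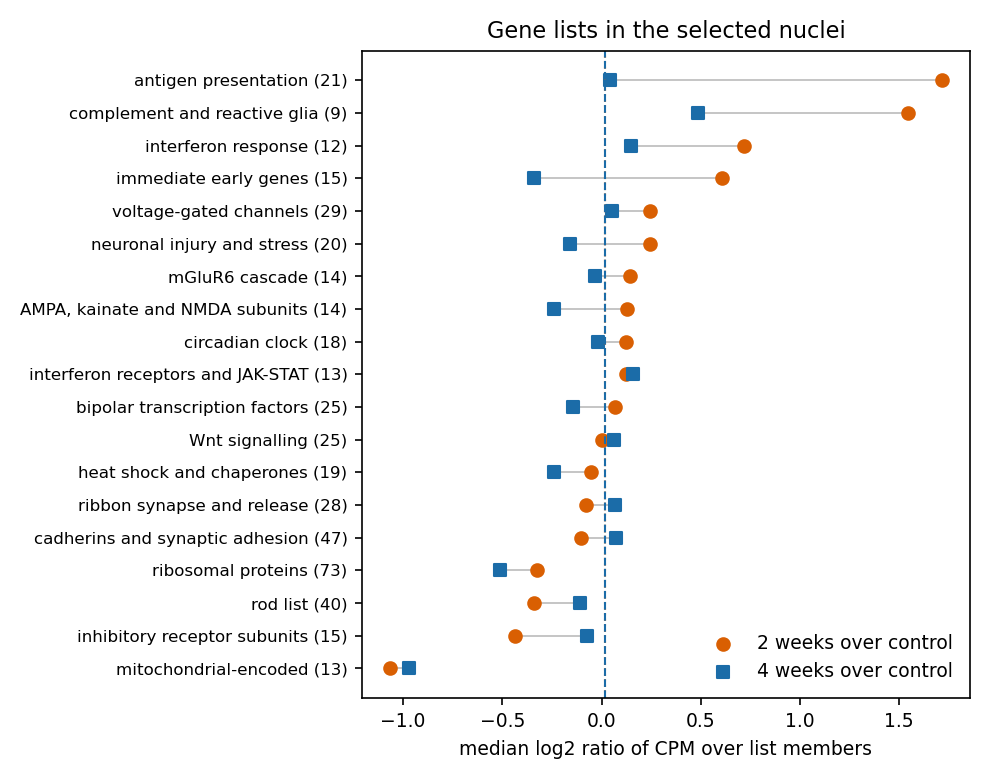
Median log2 ratio of CPM over the measured members of each gene list in the selected nuclei, at 2 and 4 weeks over the control, with the number of measured members in parentheses and the genes of the selection rule left out. Antigen presentation stands at 1.72 at 2 weeks and 0.04 at 4 weeks, while mGluR6 cascade and ribbon synapse genes lie between -0.08 and 0.14.

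Of the transcription factors of bipolar cells other than Sox6, 1 of 22 tested was called at each time, Zfhx4 lower at 2 weeks, against 3.11% of all genes, and Tshz2 lower at 4 weeks, against 1.15%. Zfhx4, a zinc finger homeobox factor, stood at 300, 141 and 240 CPM. It was held mostly by nuclei with Cntn5 alone, at 723, 468 and 710 CPM, which were fewest at 2 weeks. Tshz2 had 31, 10 and 11 UMIs, but 1, 2 and 3 without called doublets, so its call rested on nuclei called as doublets. Vsx1 stood at 271, 160 and 163 CPM over all selected nuclei, with ratios of 0.59 and 0.60, and Nfia at 663, 965 and 1031.

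Of 48 cadherin and synaptic adhesion genes outside the selection, 36 were tested at 2 weeks and 37 at 4 weeks. Pcdh10 and Ncam2 were called lower at both times, beside 3.11% and 1.15% of all genes. Pcdh10, a protocadherin, had 94, 18 and 38 UMIs, and in nuclei with both gene sets alone its ratios were 1.14 and 1.09. Ncam2, a neural adhesion molecule, had 56, 4 and 3 UMIs, and its 56 control UMIs lay in 6 nuclei. Without called doublets Ncam2 had 23, 0 and 0 UMIs, too few for a call, and the 4-week ratio of Pcdh10 was 0.53. The list medians were -0.11 and 0.07.

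WIF1 acts on the Wnt pathway. Of 44 listed genes of this pathway 0 of 15 tested were called at 2 weeks and 1 of 16 at 4 weeks, near the shares of all genes, with medians of 0.00 and 0.06. The called gene was Dkk3, a secreted relative of Wnt inhibitors, with 62, 20 and 25 UMIs and a ratio of 0.49 at 4 weeks. Without called doublets Dkk3 had 10, 19 and 7 UMIs and a 4-week ratio of 0.84, so it was not called. From 2 to 4 weeks 1 of 14 tested genes was called lower, against 1.73% of all genes. It was Dvl1, a cytoplasmic Wnt transducer, with 96, 87 and 78 UMIs and a ratio of 0.50. Tcf4, an E-box transcription factor that the design names as a Wnt regulator, stood at 792, 914 and 905 CPM, with ratios of 1.15 and 1.14. Tcf7l2, a nuclear partner of beta-catenin, had 22, 4 and 6 UMIs, and 1, 4 and 3 without called doublets. Ctnnb1, beta-catenin itself, stood at 62.0, 62.0 and 57.2 CPM. Wif1 had 0, 0 and 2 UMIs in the selected nuclei, so RNA assigned to Wif1 was at or under the floor of 3 counts in each library. Whether RNA of the vector would be assigned to Wif1 was not tested.

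Complement and glial genes were higher at 2 weeks in 9 of 9 measured members, beside 51.6% of all genes, with a median of 1.55. Of 3 tested genes 2 were called, against 1.84% of all genes. Clu, the secreted chaperone clusterin, stood at 110, 253 and 129 CPM, a ratio of 2.31 at 2 weeks, and Vim, the filament protein vimentin, had 24, 31 and 33 UMIs and a ratio of 2.83. Thinned to 2000 UMIs, the Vim ratio was 1.34 and the Clu ratio 1.97. Gfap, the glial filament protein, had 1, 12 and 0 UMIs. The 7 markers of Müller glia summed to 207, 255 and 220 CPM in these nuclei with none at 0, and their part in the values was not tested.

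Injury and stress genes had a median of 0.24 at 2 weeks, where 1 of 9 tested genes, Nfe2l2, was called lower, and of -0.16 at 4 weeks with 0 of 10 called. Heat shock genes had 0 of 14 calls and clock genes 0 of 17 at both times. Ribosomal protein genes were lower than the control in 59 of 73 at 2 weeks and in 72 of 73 at 4 weeks. Of all genes, 51.6% and 51.9% were higher. The ribosomal medians were -0.33 and -0.51, but Tpt1 at 2 weeks was the one gene called. Mitochondrial genes were lower in 13 of 13 at both times, with medians of -1.07 and -0.97, beside the lower mitochondrial shares given above. Of the 13, 8 were called lower at 2 weeks, against 3.11% of all genes, and 3 at 4 weeks, against 1.15%.

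Over all genes, 147 were at least 2-fold higher and 249 lower at 2 weeks, and 45 were higher and 103 lower at 4 weeks. Beside the class I genes and Igkc, high ratios at 2 weeks were those of Snhg9, a small nucleolar RNA host gene, at 7.39, Dalrd3 at 4.42, 4930414N06Rik at 3.91, Leng9 at 3.26, Rps6ka2, a ribosomal S6 kinase, at 3.21 and Sbf1 at 3.15. Dalrd3 had 56, 113 and 90 UMIs and Snhg9 had 16, 54 and 26, both highest at 2 weeks. Rps6ka2 had 60, 88 and 101 UMIs and also led the 4-week list at 2.04 (1.47 to 2.86), followed by Ptprk, a receptor phosphatase, at 2.02. Thinned to 2000 UMIs, Rps6ka2 was at 1.39 and Ptprk at 1.83 at 4 weeks, and Ptprk was at 1.46 when standardised to the control mix of the 3 kinds of nuclei.

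The lowest ratios at 2 weeks belonged to AY036118 and Gm42418, transcripts annotated over ribosomal RNA repeats. AY036118 stood at 1117, 87.6 and 1173 CPM and Gm42418 at 3172, 280 and 2040 CPM, and both were as low in rod bipolar nuclei at 2 weeks, with ratios of 0.080 and 0.077. Slit2, a secreted axon guidance protein, had 314, 33 and 275 UMIs, a ratio of 0.23 (0.16 to 0.33) at 2 weeks. It was held mostly by nuclei with Cntn5 alone, at 403, 128 and 352 CPM, and 1 nucleus held 24.8% of its control UMIs. Tmem65, a mitochondrial membrane protein, stood at 87.6, 29.5 and 42.5 CPM, with ratios of 0.34 and 0.49.

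The lowest ratios at 4 weeks were led by cone genes. Opn1mw, the M opsin, stood at 162, 91.5 and 39.8 CPM, a ratio of 0.25 at 4 weeks, and Arr3, cone arrestin, at 138, 129 and 38.7 CPM, a ratio of 0.28. Pde6h and Gngt2, of the cone phosphodiesterase and transducin, were at 0.34 and 0.46. The 7 cone markers summed to 935, 880 and 386 CPM with none at 0. Without called doublets the Opn1mw and Arr3 ratios were 0.71 and 0.49, and the Pde6h and Gngt2 ratios were 0.54 and 0.64, so these values moved with the doublets. Cabp2, a calcium-binding protein of cone bipolar cells, stood at 128, 72.8 and 64.3 CPM, a ratio of 0.50 at 4 weeks.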

How the data were processed

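Nuclei of 3 retina libraries were read from the deposited count matrices, which per the file headers hold raw RNA counts (UMIs) per gene and raw ATAC counts per peak. Cell Ranger ARC 2.0.1, Seurat 5.0.1, Signac 1.12.0 and mm10 were used, per the submitters' processing notes, and peaks were called separately in each library. From these counts CPM were computed as UMIs per 1e6 UMIs of the summed nuclei, with exact Poisson intervals, and ratios with conditional binomial intervals, at 95% confidence. A library at 0 was set to 3 counts for ratios. A gene was called at a ratio of 2 in either direction, if its higher library held 30 UMIs or more, and list medians took genes with at least 10 UMIs in the pair. No test was made, because nuclei of 1 library are not replicates.

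The members and lists were chosen with earlier results of these data known. The named genes were the 10 highest and 10 lowest ratios at 2 and at 4 weeks over control and the 5 highest and lowest from 2 to 4 weeks. The higher library had to hold 30 UMIs or more and 50 CPM or more. Mitochondrial, Y-linked and rod-list genes, Xist and Tsix were left out, while other X-linked genes were kept. Genes of which 1 nucleus held over 25% of the UMIs of the higher library were also left out. Members of the lists, Wif1, Tcf4 and Tcf7l2 could also be named. Some genes that the rule or the lists hold are not reported here. Names of genes that set the 3 kinds of nuclei apart were chosen after their values were seen. Promoters were peaks within 1000 bp of a RefSeq start, in 11184 genes with one in all 3 libraries, scaled to promoter counts. Selected nuclei had median ATAC counts of 4542, 7914 and 6273.

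Doublets were scored with Scrublet in scanpy 1.11.5, whose automatic threshold called 0, 327 and 0 barcodes and was replaced by the expected rates of 6.84%, 10.8% and 8.27%. Alternatives changed the size factors, the scaling, the UMI minimum, the doublets, the selection threshold and the depth, and, added after seeing the data, the mix of kinds of nuclei and the scaling of ATAC. The method recovered known ratios in simulated counts, where the changed genes were well covered and changed by more than the call limit. These counts were drawn without clumping in single nuclei and without doublets. They therefore do not check the calls or intervals in the real nuclei. Other tools were numpy 2.4.6, scipy 1.17.1, pandas 2.3.3 and matplotlib 3.10.9.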

Additional observations from a re-analysis of the deposited data

How the results depend on the processing

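No paired analysis was possible because each group has 1 library. The antigen presentation median kept its direction under all 8 alternatives at 2 weeks, while its size ran from 1.59 to 3.25, beside 1.72 in the main values. The spread of its list, 0.32 to 3.45, held all of these but is wide. The H2-K1 ratio stayed between 14.02 and 17.1. Of the other list medians 435 values were within the spread of their own list and 20 were not. Of the ratios of named genes 1805 were within their counting intervals, 282 moved and 11 reversed. Only ratios called in the main values could count as reversed. Other changes of direction are among the rest, such as Vim at 4 weeks, from 1.67 to 0.34 without called doublets. No scaling moved the median of all genes by more than 0.05 on the log2 scale.

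The share of selected nuclei depended on depth. Its ratio to the control at 2 weeks was 1.10 with barcodes of at least 1000 UMIs, 0.909 with at least 2000, 1.22 with those thinned to 2000, 0.474 with a minimum of 20 UMIs of the 5 genes, and 0.797 as a share of ON bipolar nuclei. At 4 weeks it was 0.923, 1.02 and 1.37 under the first 3 of these and 0.948 as a share of ON bipolar nuclei.

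Counts of genes depended on the UMI minimum. With minimums of 10 UMIs, 100 UMIs and none, 503, 23 and 4104 genes were higher and 631, 64 and 927 lower at 2 weeks, 269, 3 and 2152 higher and 391, 14 and 2032 lower at 4 weeks, and 553, 29 and 943 higher and 481, 21 and 3248 lower from 2 to 4 weeks. In nuclei thinned to 2000 UMIs 91 genes were higher (48 of them among the 147) and 151 lower (68 among the 249) at 2 weeks. At 4 weeks 25 were higher (3 among the 45) and 76 lower (18 among the 103). Without called doublets 137 were higher (90 among the 147) and 296 lower (163 among the 249) at 2 weeks. At 4 weeks these were 49 higher (16 among the 45) and 71 lower (37 among the 103). In nuclei with both gene sets alone, with fewer UMIs summed, 88 were higher and 133 lower at 2 weeks, 90 higher and 41 lower at 4 weeks, and 80 lower from 2 to 4 weeks. Scaled to all ATAC counts, 223 promoters were lower at 2 weeks instead of 135. The causes of these differing counts were not tested.

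Among ratios called in the main values, those that reversed in nuclei with both gene sets alone were those of Trpm3 (1.58 at 2 weeks, 1.31 at 4 weeks), Pdgfd (1.58 at 2 weeks), Tmem200a (3.70 at 2 weeks), Zfhx4 (1.06 at 2 weeks), Pcdh10 (1.14 at 2 weeks, 1.09 at 4 weeks), Kcnh7 (2.35 at 4 weeks) and Dscam (1.31 from 2 to 4 weeks). Without called doublets Trpm3 was at 1.27 at 2 weeks and Dscam at 1.21 from 2 to 4 weeks.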

Other observations

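When the selected nuclei were clustered again, 4 small sub-clusters of 80, 65, 31 and 40 nuclei had 73.8%, 66.2%, 93.5% and 70.0% of their nuclei called as doublets, while in the sub-cluster of 412 nuclei 1.94% were. The 4 endothelial markers summed to 55.2, 9.84 and 18.5 CPM in the selected nuclei of the control, 2-week and 4-week libraries, and the 4 horizontal cell markers to 10.3, 57.1 and 22.3 CPM.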
